A study of Mus musculus with 6 samples.

Results

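The collagen, mural and endothelial genes described here are 57 protein-coding genes of the blood vessel wall and of connective tissue. They were taken from the GENCODE M21 annotation by symbol: 44 collagen chain genes (Col, a number, a, a number) and 13 named genes of endothelial, mural and fibroblast cells. All 57 were matched by Ensembl identifier among the 53379 genes listed in every library, of which 21865 are protein-coding. RNA of small extracellular vesicles, membrane-bound particles released by cells, was sequenced in 6 libraries from primary cortical neurons of wild-type mouse embryos. NorEV, the 3 libraries with the treatment label control, came from neurons that the study calls normoxic. HypEV, the 3 libraries with the treatment label OGD/R, were read as those from neurons that it calls hypoxic. The labels give the same cell type and genotype for both groups, and they name no cell type other than neurons. Neither the isolation of the vesicles nor a separate culture for each replicate is described in the sources used here, so p-values measure only how far these libraries spread, and that spread may be technical. Values are FPKM, the fragments on a gene per kilobase of its length and per unit of sequencing depth over all genes.

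Collagens are matrix proteins whose chains, alike or of several kinds, wind into a rigid triple helix. Fibrillar collagens build the cables of skin, bone, tendon and cartilage, and type IV collagen builds the mesh of basement membranes, on which endothelial cells rest in brain vessels. Endothelial cells line the vessels, mural cells (pericytes and smooth muscle cells) wrap them, and fibroblasts make most of the collagen around the larger ones. Neurons are not the usual source of most of these proteins, with exceptions such as Col25a1, a collagen of neurons.

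Exon structure is given first, because it returns beside the levels further on. The helical part of each chain repeats a triplet of amino acids that opens with glycine, whose codon starts with GG. In the 11 fibrillar collagen genes, 305 of 649 coding exons (47.0%) were exactly 54 bases long, against 870 of 196967 (0.442%) in the other protein-coding genes. Type IV collagen genes had 12 of 296 (4.05%), and the 13 vessel and fibroblast genes 1 of 155 (0.645%). Exons of 54 bases were also common in some fibril-associated collagens, such as Col22a1 (28 of 63) and Col9a2 (14 of 32). They were fewer in others, such as Col12a1 (4 of 65). The first coding exon of 54 bases that consists of 6 unbroken glycine triplets is shown for 4 fibrillar collagens. The sequences are of the GENCODE M21 transcripts on GRCm38, read on the strand of the gene, and capitals mark the glycine codon that opens each triplet. The exons lie at chr11:94939904-94939957 (plus strand, coding exon 8 of 51) in Col1a1, chr6:4515481-4515534 (plus, 8 of 52) in Col1a2, chr15:97998545-97998598 (minus, 6 of 54) in Col2a1 and chr1:45325360-45325413 (plus, 6 of 51) in Col3a1.
Col1a1: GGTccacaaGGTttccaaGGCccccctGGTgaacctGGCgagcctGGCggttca
Col1a2: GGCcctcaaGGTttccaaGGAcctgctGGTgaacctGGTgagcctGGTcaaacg
Col2a1: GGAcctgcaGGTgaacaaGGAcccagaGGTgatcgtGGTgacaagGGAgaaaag
Col3a1: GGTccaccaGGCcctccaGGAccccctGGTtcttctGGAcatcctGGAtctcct

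The libraries held 1092724 to 1494498 fragments on genes in NorEV and 1320915 to 2141610 in HypEV, as recovered from the steps between the FPKM values. The members took 4765, 5806 and 6747 of these fragments in the NorEV libraries, taken in their order, against 4373, 6512 and 3990 in HypEV. A member rested on a median of 74, 95 and 115 fragments in NorEV and of 71, 110 and 61 in HypEV. The gene listed as Gm23935 took 4.31, 0.554 and 0.297% of the fragments in NorEV and 49.5, 1.95 and 24.4% in HypEV. FPKM is scaled to all fragments, so a larger share for 1 gene lowers the values of all others, and the group comparison is also given with each library centred on its median.

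The collagens as a group stood above the median protein-coding gene in 6 of 6 libraries, and the 13 vessel and fibroblast members in 5 of 6, with NorEV 1 as the exception (6.18 against 6.72 FPKM). Cldn5 and both fibroblast genes, Dcn and Lum, lay below it in all 6. The median member had 13.0, 11.96 and 13.5 FPKM in NorEV 1, 2 and 3 and 6.202, 13.8 and 8.16 FPKM in HypEV 1, 2 and 3. The median protein-coding gene had 6.72, 7.24 and 8.21 FPKM in NorEV against 3.53, 8.22 and 5.05 in HypEV. The ratio of these medians was 1.94, 1.65 and 1.64 in NorEV against 1.76, 1.68 and 1.62 in HypEV, so it moved little while the FPKM of HypEV 1 and 3 were below those of the other libraries. Of the 57 members, 43 to 46 lay above the protein-coding median in any library. The members held 0.530 to 0.588% of the fragments on protein-coding genes in NorEV and 0.517 to 0.584% in HypEV. Of the 57, 56 were detected in all 6 libraries, and Cldn5 was at 0 in NorEV 1 and HypEV 3.

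**Figure D1:**
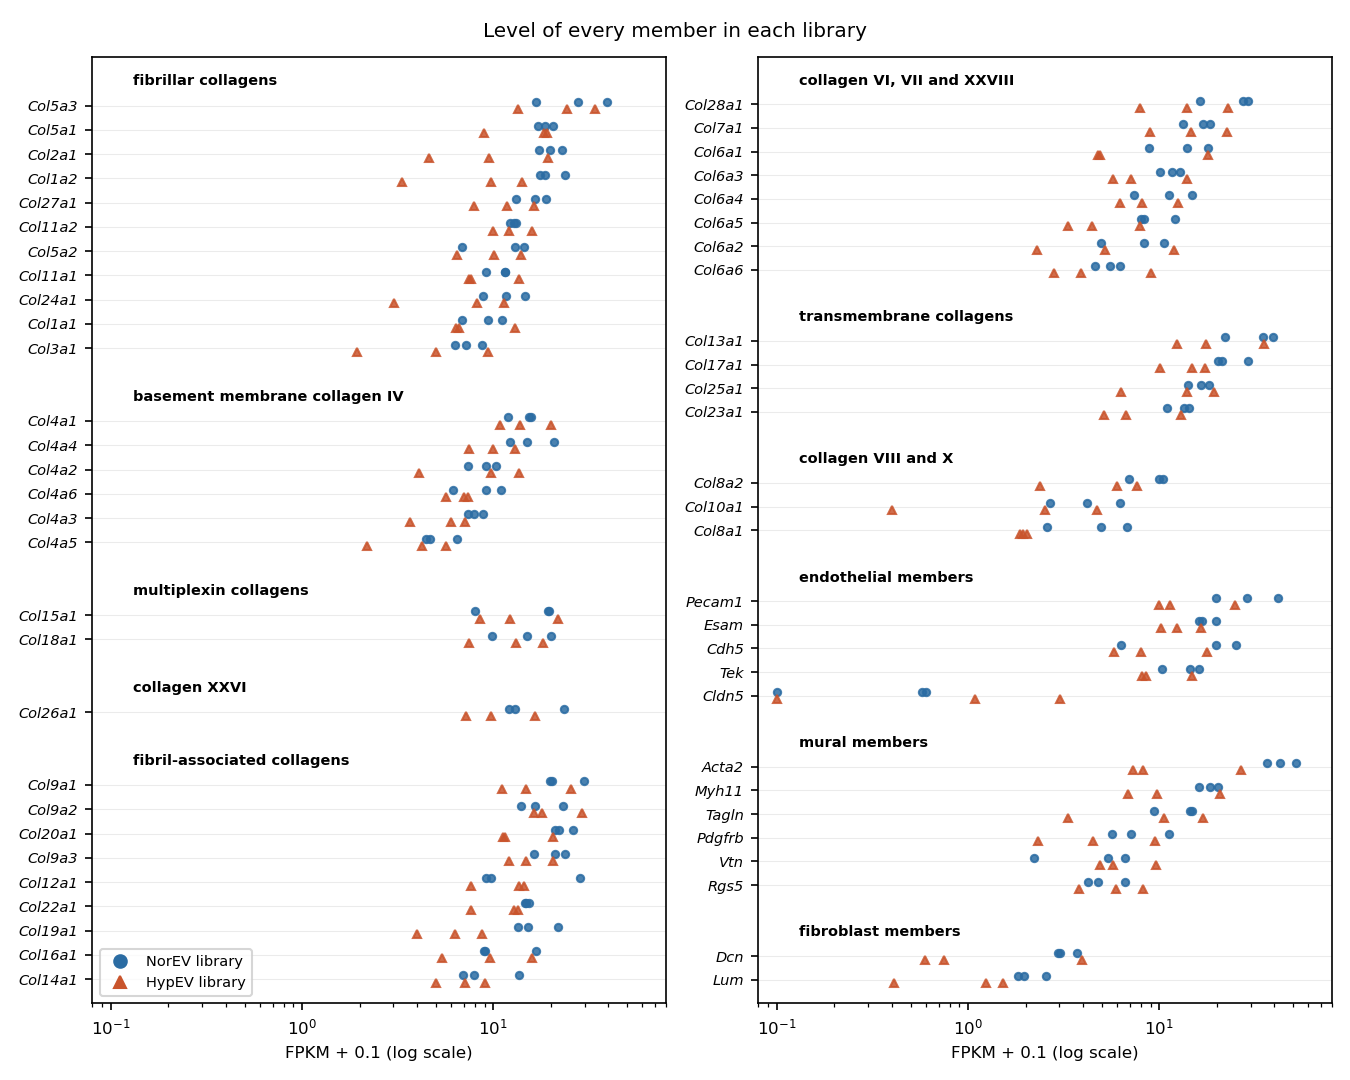
FPKM + 0.1 (log axis) of each of the 57 members in each library, by role; blue circles are the 3 NorEV libraries and orange triangles the 3 HypEV libraries. Cldn5 and Lum lie lowest, the fibroblast members and collagens VIII and X are low as groups, and Acta2 stands highest in NorEV.

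Among the fibrillar collagens, Col5a3 and Col5a1 were the most abundant per length. Both are chains of type V collagen, a minor fibrillar collagen that sets the width of type I fibrils. Col5a3 had 39.3, 16.5 and 27.6 FPKM in NorEV against 13.4, 24.1 and 34.0 in HypEV, and the groups overlapped. Col5a1 had 20.4, 17.1 and 18.6 FPKM in NorEV against 8.83, 19.0 and 18.3 in HypEV, with only HypEV 1 apart from the rest. Col2a1, the main collagen of cartilage, had 22.8, 17.2 and 19.7 FPKM in NorEV against 4.48, 19.2 and 9.34 in HypEV, more per length than Col1a1 in 5 of the 6 libraries. Col1a1, a chain of the type I collagen of skin and bone, had 6.79, 9.31 and 10.9 FPKM in NorEV against 6.54, 12.8 and 6.26 in HypEV. Col3a1, the collagen of vessel walls and other pliable tissue, was lowest of the 11 with a mean of 6.34 FPKM over the 6 libraries. The rest of the group, Col1a2, Col27a1, Col11a2, Col5a2, Col11a1 and Col24a1, had means of 9.52 to 14.4 FPKM.

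The type IV collagens of basement membranes had medians of 8.004, 9.08 and 10.5 FPKM in NorEV against 4.77, 10.1 and 8.29 in HypEV. Col4a1 and Col4a2, the chains of the vascular basement membrane, are known to be made together by endothelial and mural cells. Col4a1 had 15.2, 11.8 and 15.6 FPKM in NorEV against 10.8, 20.0 and 13.6 in HypEV. Col4a2 had 7.24, 9.10 and 10.2 FPKM in NorEV against 3.98, 13.5 and 9.62 in HypEV, below Col4a1 in all 6 libraries. Col4a4, known from the kidney filter, had 20.7, 14.9 and 12.1 FPKM in NorEV against 7.34, 12.9 and 9.89 in HypEV, and its mean of 13.0 FPKM lay between those of the vascular chains. Col4a3 (mean 6.74 FPKM), Col4a6 (7.63) and Col4a5 (4.499) were lower. Col15a1 and Col18a1, multiplexin collagens that sit at the outer side of basement membranes, had means of 14.8 and 13.8 FPKM over the 6 libraries. Col15a1 had 7.96, 19.4 and 19.3 FPKM in NorEV against 8.40, 21.8 and 12.1 in HypEV, low in the first library of each group. Col18a1, whose protein is the source of endostatin, had 14.9, 9.74 and 19.9 FPKM in NorEV against 7.34, 18.2 and 13.0 in HypEV, with overlapping groups.

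The fibril-associated collagens, which coat fibrils and link them to other proteins, were led by Col9a1 and Col9a2 of cartilage. Col9a1 had 19.6, 29.7 and 20.2 FPKM in NorEV against 14.7, 25.3 and 11.1 in HypEV. Col9a2 had 23.2, 13.8 and 16.5 FPKM in NorEV against 16.3, 29.1 and 17.9 in HypEV. The other 7 members of this group lay between means of 8.15 FPKM (Col14a1) and 18.7 FPKM (Col20a1). Col12a1 had 28.4 FPKM in NorEV 1 and 7.50 to 14.4 FPKM in the other 5 libraries.

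The transmembrane collagens, which stay anchored in the cell membrane, had medians of 18.03, 19.2 and 18.7 FPKM in NorEV against 8.11, 18.3 and 14.3 in HypEV. Col13a1, found at the neuromuscular junction among other sites, had 21.996, 39.4 and 34.9 FPKM in NorEV against 12.3, 35.2 and 17.5 in HypEV. Col17a1, which anchors skin cells to their basement membrane, had 28.8, 20.3 and 21.1 FPKM in NorEV against 10.03, 17.3 and 14.8 in HypEV, without overlap of the groups. Col25a1, the member of neurons, had 14.1, 18.1 and 16.4 FPKM in NorEV against 6.202, 19.3 and 13.8 in HypEV, and its mean of 14.6 FPKM was below those of Col13a1 and Col17a1 and above that of Col23a1.

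Of the collagen VI, VII and XXVIII genes, Col28a1 (means 24.1 ± 6.89 FPKM for NorEV and 14.8 ± 7.50 FPKM for HypEV, SD, n = 3 each) and Col7a1, the anchoring fibril of skin (16.1 ± 2.56 and 15.3 ± 6.89), were highest. Col28a1 had 16.2, 28.9 and 27.2 FPKM in NorEV against 7.84, 22.7 and 13.8 in HypEV, and Col7a1 had 16.7, 13.2 and 18.2 FPKM in NorEV against 8.88, 22.6 and 14.5 in HypEV. Both were lowest in HypEV 1, and their groups overlapped. Col6a1, Col6a2 and Col6a3, the chains of the beaded filaments that pericytes and fibroblasts make, had means of 11.3, 7.11 and 10.1 FPKM. Col6a4, Col6a5 and Col6a6 had 9.95, 7.25 and 5.23 FPKM. Col6a5 and Col6a6 share stretches of at least 100 bases that are at least 95% alike, so the split between them is uncertain. The short-chain collagens were low: Col8a2 and Col8a1, of endothelial and corneal membranes, and Col10a1, of growth plate cartilage, had means of 7.13, 3.25 and 3.36 FPKM. Col8a2 had 10.4, 6.86 and 9.89 FPKM in NorEV against 2.26, 5.91 and 7.51 in HypEV, and Col10a1 had 6.14, 4.07 and 2.57 FPKM in NorEV against 0.298, 4.64 and 2.42 in HypEV. Col10a1 rested on 2 fragments in HypEV 1. Col26a1, which belongs to none of these groups, had a mean of 13.5 FPKM.

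Among the endothelial genes, Pecam1, an adhesion molecule of the junctions between endothelial cells, was highest. It had 19.7, 41.7 and 28.8 FPKM in NorEV against 11.3, 24.7 and 9.90 in HypEV. Esam, another junction molecule, had 16.7, 15.9 and 19.7 FPKM in NorEV against 12.3, 16.3 and 10.1 in HypEV. Cdh5, the cadherin of endothelial junctions, was uneven between libraries of both groups, with 6.18, 24.97 and 19.6 FPKM in NorEV against 5.73, 17.7 and 7.96 in HypEV. Tek, the receptor of angiopoietins, had means of 13.5 ± 2.96 FPKM for NorEV and 10.4 ± 3.77 FPKM for HypEV (SD, n = 3 each). Cldn5, the tight-junction claudin of the blood-brain barrier and one of the most abundant mRNAs of brain endothelium, rested on 0, 1 and 1 fragments in NorEV and 3, 6 and 0 in HypEV. A count of 0 allows up to 3 fragments, or 1.94 FPKM in NorEV 1 and 1.60 FPKM in HypEV 3. Cldn5 was the lowest member, and the only one under a mean of 1 FPKM (0.817), while the other 4 endothelial genes had means of 11.9 to 22.7 FPKM.

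The mural genes were led by Acta2, the smooth muscle actin, with 51.9, 42.9 and 36.4 FPKM in NorEV against 8.13, 26.8 and 7.23 in HypEV. Acta2 was the highest member of all in each NorEV library. Myh11, the smooth muscle myosin heavy chain, had 16.01, 18.2 and 20.2 FPKM in NorEV against 6.76, 20.7 and 9.59 in HypEV. Tagln, a smooth muscle protein that binds actin, had 14.3, 9.32 and 14.7 FPKM in NorEV against 3.22, 16.9 and 10.4 in HypEV. Of the exon bases of Tagln, 67.9% are also covered by exons of genes on the opposite strand, Pcsk7 among them, so its value is uncertain if the counting did not use strand. The pericyte genes were lower: Pdgfrb, the receptor of platelet-derived growth factor B, had a mean of 6.63 FPKM over the 6 libraries, Rgs5, a regulator of G protein signalling, 5.50 and Vtn, vitronectin, 5.65. The fibroblast genes, both small proteoglycans that bind collagen, were near the bottom. Dcn had 2.93, 3.62 and 2.85 FPKM in NorEV against 0.498, 3.83 and 0.645 in HypEV, and Lum had 1.87, 1.73 and 2.46 FPKM in NorEV against 1.14, 1.41 and 0.309 in HypEV. Lum rested on 1 to 9 fragments per library.

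Genes of 1 tissue or cell type could lie far apart in the order of the levels. Of the cartilage collagens, Col9a1 had a mean of 20.1 FPKM over the 6 libraries and Col10a1 one of 3.36 FPKM. Of the endothelial genes, Pecam1 lay near the top of the members and Cldn5 at the bottom. The order was shared between libraries: over the 57 members, Spearman's rho between libraries was 0.746 to 0.862 within NorEV, 0.761 to 0.786 within HypEV and 0.620 to 0.899 between the groups. Over all protein-coding genes the corresponding rho was 0.735 to 0.855, 0.702 to 0.723 and 0.684 to 0.816. These rank correlations are across genes, which are not independent replicates, and the genes share each library's depth.

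The 5 members with the lowest means all had few exons, while the next, Col4a5, has 53. In the longest transcript Cldn5 has 1 exon, Lum and Col10a1 have 3, Col8a1 and Col8a2 have 4, Rgs5 has 5 and Dcn has 6. These 7 genes, under 2 exons per kilobase of transcript, had means of 0.817 to 7.13 FPKM. All 8 members with at least 10 exons per kilobase had means of 10.8 to 26.9 FPKM. They were Col11a2, Col13a1, Col16a1, Col2a1, Col5a3, Col7a1, Col9a2 and Col9a3. Over the 57 members, Spearman's rho between exons per kilobase and mean FPKM was 0.52, and it was 0.40 to 0.60 in single libraries. It was 0.56 over the 44 collagens and 0.47 over the 41 collagens with at least 2 exons per kilobase. Over the annotated exons of all transcripts of a gene, counted per kilobase on both sides, it was 0.62. In these comparisons, and in that of the other protein-coding genes below, both sides are divided by a length of the gene. The part of this shared divisor in rho was not tested.

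The other protein-coding genes were also higher at higher exon density. For comparison, 17710 of them with a longest transcript of at least 1416 bases, the length of the shortest member, were divided by exon density. Their median was 4.39 FPKM below 1 exon per kilobase, 5.63 from 1 to 2, 7.65 from 2 to 4, 9.71 from 4 to 6, 11.2 from 6 to 8 and 13.3 from 8 to 10. At 10 or more exons per kilobase, a density reached by 23 of these genes, it was 17.9 FPKM. The members had medians of 3.30, 2.40, 13.7, 10.5, 13.4, 10.98 and 16.9 FPKM in the same steps, with 4, 3, 3, 15, 12, 12 and 8 members. Unlike the other genes, they did not rise at every step. Set beside genes of like exon density, the member median was lower in 4 steps and higher in 3, and the steps hold unequal numbers of members. The median of all protein-coding genes, which the member median exceeded in every library, also includes shorter genes. The comparisons are therefore of unlike sets. Over the 17710 other genes rho between exon density and level was 0.39. GC content also moved with the level of the members (rho 0.31) and with their exon density (0.48). Over the members, transcript length (-0.07) and the span of the gene in the genome (0.05) had rho near 0. Over the 17710 other genes rho with the level was 0.20 for GC content, 0.06 for transcript length and 0.31 for span. These are descriptions across genes of 1 set of libraries, and the part of exon density, GC content or span in the levels was not tested.

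**Figure D2:**
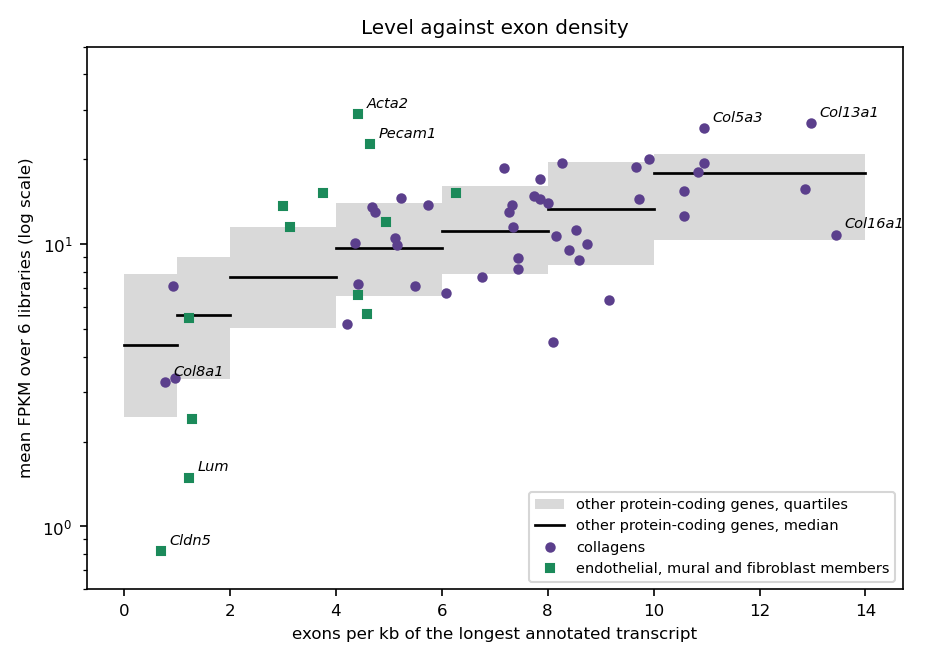
Mean FPKM over the 6 libraries (log axis) against exons per kilobase of the longest transcript for 44 collagens (purple) and 13 endothelial, mural and fibroblast members (green); black lines and grey boxes are the medians and quartiles of 17710 other protein-coding genes, with the last box holding all genes of 10 or more. Members below 2 exons per kilobase lie low and those of 10 or more lie high, without a rise at every step between. Cldn5 and Lum are lowest. Acta2 and Pecam1 lie above the upper quartile of genes of like exon density, as do other members such as Esam, Col13a1 and Col5a3.

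Genes of the same cells and pathways are given beside the members. Other endothelial genes (13, among them Kdr, Flt1 and Vwf) had library medians of 9.56 ± 1.19 FPKM (NorEV) and 7.595 ± 4.02 FPKM (HypEV), each with the SD over 3 libraries. Other mural genes (12) had 9.46 ± 1.88 and 7.54 ± 1.57 FPKM. Genes that fold, process and crosslink collagen (30, such as the prolyl hydroxylases and lysyl oxidases) had 12.2 ± 1.82 and 7.79 ± 3.96 FPKM, laminins and other basement membrane partners (15) 9.82 ± 2.48 and 6.40 ± 2.21, and collagen receptors (9) 9.10 ± 1.67 and 5.89 ± 2.63. The 44 collagens had 13.2 ± 1.13 and 9.88 ± 3.62 FPKM.

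The labelled cell type was checked in the same way. The 15 markers of neurons had library medians of 10.2 ± 1.36 FPKM (NorEV) and 8.08 ± 1.91 FPKM (HypEV), and the median of the 44 collagens was above that of these markers in 6 of 6 libraries. The lists differ in exon density, with a median of 1.76 exons per kilobase for the neuronal markers and 7.79 for the collagens, and other protein-coding genes had medians of 5.63 FPKM at 1 to 2 and 11.2 FPKM at 6 to 8 exons per kilobase. The part of exon density in this order was not tested. Elavl4, an RNA-binding protein of neurons, was highest of them with a mean of 58.2 FPKM, and Map2, of dendrites, had 14.5 FPKM. Others were low: Dcx, the lowest, had 2.81 FPKM, and Syn1, Elavl3 and Nefl had 5.30, 5.50 and 5.93 FPKM. The 15 neuronal markers summed to 180 to 239 FPKM in single NorEV libraries and 160 to 212 in HypEV, and the 13 vessel and fibroblast members to 152 to 191 and 73.5 to 173. Single genes weigh on these sums. In NorEV 1, Elavl4 alone gave 81.6 FPKM and Acta2 51.9, and in HypEV 3 they gave 81.6 and 7.23. Astrocyte markers (9) had medians of 6.18 ± 0.877 and 5.77 ± 1.83 FPKM, microglial markers (9) 7.57 ± 1.76 and 4.74 ± 3.11, oligodendrocyte markers (9) 4.86 ± 0.430 and 4.58 ± 1.15, and red blood cell genes (6) 7.95 ± 5.28 and 4.33 ± 2.34. Genes of liver, muscle and skin (16), tissues that the labels do not name, had 10.2 ± 2.95 and 6.90 ± 3.14 FPKM. Genes listed at 0 in at least 1 library were Higd1b and Ndufa4l2 of the mural list, C1qb and Tmem119 (microglia), Olig1, Olig2 and Sox10 (oligodendrocytes), Hba-a1, Hba-a2 and Hbb-bs (red blood cells) and Apoa1, Fgb and Serpina1a (liver). Which cells the RNA came from was not tested.

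**Figure D3:**
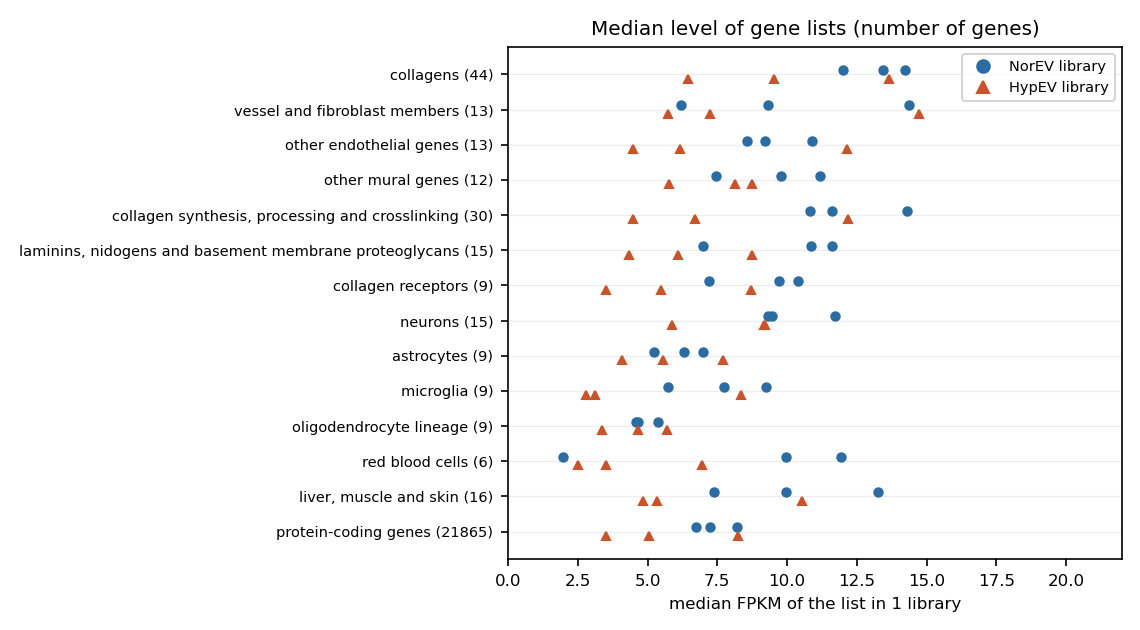
Median FPKM of each gene list in each library (number of genes in parentheses); blue circles are NorEV and orange triangles HypEV libraries. Collagens lie at 6.44 to 14.2 FPKM, above the neuronal, astrocyte, microglial, oligodendrocyte and red blood cell lists in every library. The vessel and fibroblast members were higher than the collagens in NorEV 3 and HypEV 2 (14.4 and 14.7 FPKM). So were the collagen synthesis list in NorEV 3 (14.3 FPKM) and the liver, muscle and skin list in NorEV 2 (13.3 FPKM).

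The study set HypEV against NorEV to profile how gene expression differs between them. No collagen, endothelial, mural or fibroblast gene passed the test in that comparison. Of 56 tested members (Cldn5 fell below the minimum mean of 1 FPKM) 0 passed at an adjusted p under 0.05 (limma on log2(FPKM + 1), Benjamini-Hochberg over 44125 genes), where 0.0159% of all tested genes did. At an unadjusted p under 0.05, 3 members were lower and 0 higher, against 6.13% and 0.635% of all tested genes. By value, 52 members had a lower and 4 a higher mean on the log2 scale in HypEV, where 74.9% of all genes were lower. All members are protein-coding, and of 20356 tested protein-coding genes 16383 were lower by value. At an unadjusted p under 0.05 (limma), 865 of these were lower and 33 higher. The median log2 fold change was -0.44 over the members and -0.44 over all tested genes. In limma-voom on the recovered fragments, a test for counts, 1 member passed with totals over all genes, where 0.557% of genes did, and 0 with totals over protein-coding genes, where 0.135% did.

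With each library centred on its median, 27 members were lower and 29 higher, 1 had an unadjusted p under 0.05 (against 3.16% of all genes lower and 2.55% higher), and the median log2 fold change of the members was 0.01. The direction of the group as a whole therefore rests on how libraries are scaled. HypEV 2 had a member median as high as the NorEV libraries. Without it, 12 members had an unadjusted p under 0.05, all lower (15.0% of all genes), and 0 passed (0.163%). The median was then -0.74, and the smallest adjusted p was 0.0835 (limma, Acta2). Without HypEV 1, 38 members were lower and 18 higher with a median of -0.21. In bulk vesicle RNA, fewer vesicles of a cell type and less of an RNA per vesicle cannot be told apart.

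**Figure D4:**
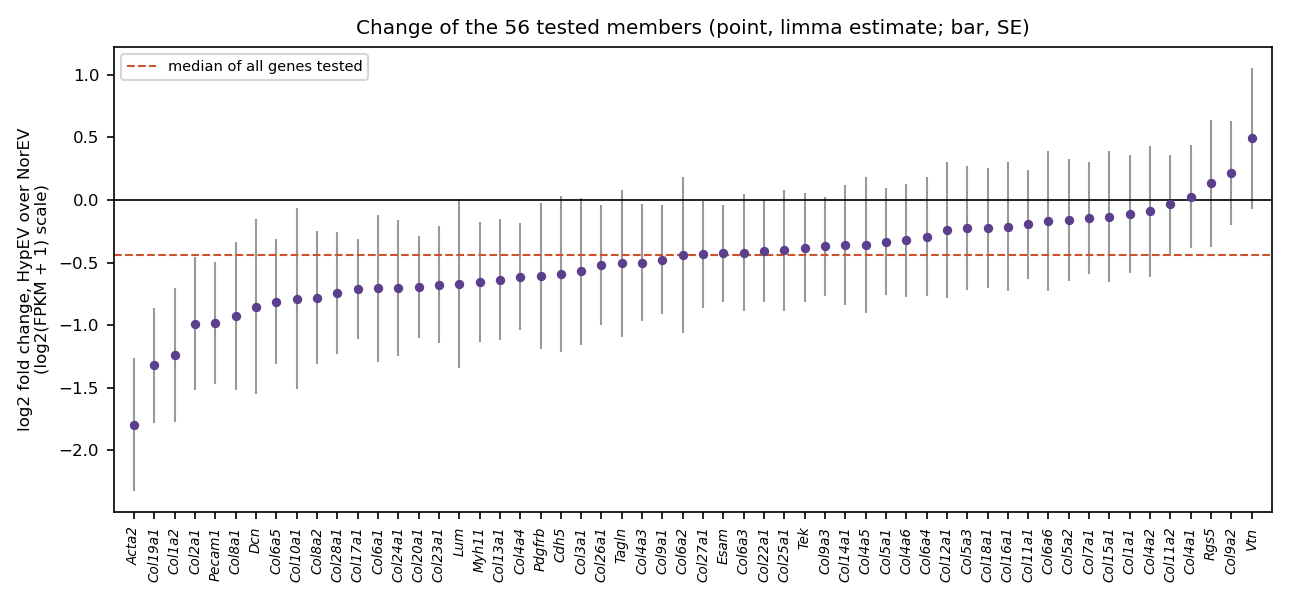
Log2 fold change of HypEV over NorEV for the 56 tested members, on the log2(FPKM + 1) scale; bars are standard errors and the dashed line is the median of all 44125 genes tested. The members lie on both sides of the dashed line, from Acta2 at -1.79 to Vtn at 0.49, and none passed the test.

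Acta2 (ENSMUSG00000035783, chromosome 19, 34241090 to 34255590, minus strand, GRCm38) had the largest difference of the tested members. Its 3 NorEV libraries (36.4 to 51.9 FPKM) were all above its 3 HypEV libraries (7.23 to 26.8). With a length of 1781 bases, the smallest of 6 that gave whole fragments and not the annotated 2035, the values rested on 101, 108 and 97 fragments in NorEV and 31, 69 and 17 in HypEV. These counts, the intervals and the limma-voom values of Acta2 rest on that choice, and the other 5 lengths were multiples of it. By these counts the exact 95% Poisson intervals, which cover counting error only, ran from 29.6 to 44.5 FPKM in NorEV 3 and from 20.9 to 33.9 FPKM in HypEV 2. The log2 fold change was -1.79 ± 0.53 SE and did not pass (adjusted p = 0.622, limma; range 0.0486 to 0.969 over the alternatives). It passed in limma-voom with totals over all genes (log2 fold change -1.89 ± 0.52 SE, adjusted p = 0.0486), and not with totals over protein-coding genes (-1.29 ± 0.41 SE, adjusted p = 0.323). Relative to the protein-coding median of the same library, Acta2 stood at 7.72, 5.92 and 4.44 times in NorEV and 2.31, 3.26 and 1.43 times in HypEV, again without overlap. Other actin genes resemble it, though no blastn alignment of at least 100 bases was at least 95% alike over its whole length. Stretches within alignments were not examined. Of the other smooth muscle genes, Myh11 had a log2 fold change of -0.65 ± 0.48 SE and Tagln one of -0.51 ± 0.59 SE, with overlapping groups.

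Col19a1, a fibril-associated collagen that interneurons and muscle make (ENSMUSG00000026141, chromosome 1, 24261890 to 24587472, minus strand), had 15.1, 21.7 and 13.4 FPKM in NorEV against 6.18, 8.64 and 3.90 in HypEV. The groups did not overlap, and the log2 fold change of -1.32 ± 0.46 SE did not pass (adjusted p = 0.705, limma; 0.146 to 0.969 over the alternatives). Relative to the protein-coding median the groups overlapped, with 2.25, 2.998 and 1.63 times in NorEV and 1.75, 1.05 and 0.771 times in HypEV. Col1a2, the α2 chain of type I collagen (ENSMUSG00000029661, chromosome 6, 4504814 to 4541544, plus strand), had 17.5, 23.5 and 18.6 FPKM in NorEV against 3.23, 14.1 and 9.63 in HypEV, also without overlap. Its log2 fold change was -1.24 ± 0.54 SE (adjusted p = 0.720, limma; 0.110 to 0.969 over the alternatives), and -0.71 without HypEV 1, its lowest library. Relative to the protein-coding median, Col1a2 stood at 2.60, 3.25 and 2.27 times in NorEV and 0.916, 1.71 and 1.91 times in HypEV.

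In all, the groups did not overlap in 10 of the 56 tested members, all lower in HypEV. Of all tested genes 10.8% were lower and 1.1% higher without overlap, and of protein-coding genes 12.9% were lower. Besides these 3 and Col17a1 they were Col20a1, Col6a5, Col8a1, Col4a3, Col22a1 and Lum, with log2 fold changes of -0.41 to -0.93. Col8a1 had 4.84, 2.49 and 6.68 FPKM in NorEV against 1.83, 1.76 and 1.93 in HypEV. Pecam1 (log2 fold change -0.98 ± 0.49 SE) and Col2a1 (-0.99 ± 0.53 SE) had larger differences than most of these, but HypEV 2 lay within NorEV for both. On the log2 scale, 4 tested members had a higher mean in HypEV. They were Vtn (0.49 ± 0.56 SE), Col9a2 (0.22 ± 0.42), Rgs5 (0.13 ± 0.51) and Col4a1 (0.03 ± 0.41). Each difference was smaller than its standard error, and the groups overlapped. By mean FPKM, Col4a2 was also higher in HypEV (9.04 against 8.84), as was the untested Cldn5 (1.31 against 0.325).

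By role, the directions of the means on the log2 scale follow, with the median log2 fold change in parentheses. Lower in HypEV were 11 of 11 fibrillar (-0.33), 5 of 6 type IV (-0.34) and 8 of 9 fibril-associated collagens (-0.37). So were 4 of 4 transmembrane collagens (-0.66) and 8 of 8 genes of collagens VI, VII and XXVIII (-0.43). The 3 genes of collagens VIII and X (-0.79), 2 of 2 multiplexin collagens (-0.18) and Col26a1 (-0.52) were lower too. The 4 tested endothelial genes were all lower (median -0.51), as were 4 of 6 mural genes (-0.56) and both fibroblast genes (-0.76). These directions rest on the scaling, since the median of all genes was itself -0.44. Above that median lay 7 of 11 fibrillar, 4 of 6 type IV, 6 of 9 fibril-associated and 1 of 4 transmembrane collagens. Of collagens VI, VII and XXVIII 5 of 8 genes did, of VIII and X 0 of 3, and of the multiplexins 2 of 2. Of the endothelial genes 2 of 4 lay above it, of the mural 2 of 6 and of the fibroblast 0 of 2. Col26a1 lay below it, and 29 of 56 members in all lay above. Of the pathway lists, 27 of 30 collagen synthesis genes (median -0.51), 9 of 9 collagen receptors (-0.58), 14 of 15 laminins and basement membrane partners (-0.46), 11 of 13 other endothelial genes (-0.53) and 11 of 12 other mural genes (-0.40) were lower. None of these list genes passed the test (0 adjusted over all genes, limma). Neuronal markers had 11 of 15 lower (-0.34) and genes of liver, muscle and skin 15 of 16 (-0.63).

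Genes of smallest p in each list follow, none of which passed. Kdr, a receptor of vascular endothelial growth factor, had 24.7, 46.0 and 31.9 FPKM in NorEV against 6.23, 23.0 and 9.84 in HypEV, without overlap. Vwf, von Willebrand factor of endothelium, had 50.2, 38.4 and 33.9 FPKM in NorEV against 13.2, 25.2 and 21.7 in HypEV, also without overlap. Like Acta2 and Pecam1, both were among the higher vessel genes of NorEV. Higd1b, a pericyte gene, had 2.49, 18.3 and 25.5 FPKM in NorEV against 0, 7.53 and 0 in HypEV, and Ndufa4l2 had means of 6.75 ± 0.566 and 4.52 ± 4.91 FPKM (SD, n = 3 each).

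Of the collagen partners, Loxl4, a crosslinking oxidase, had 8.94 ± 3.09 FPKM against 2.97 ± 3.45 FPKM for NorEV and HypEV, and P4hb, a subunit of the prolyl hydroxylase, 13.7 ± 5.47 against 5.54 ± 2.11 (SD, n = 3 each). Ddr2, a receptor kinase for fibrillar collagen, had 40.2, 29.4 and 24.6 FPKM in NorEV against 13.6, 20.3 and 16.5 in HypEV, without overlap, and Itga11, an integrin chain for collagen, 10.1 ± 1.57 and 5.95 ± 1.53 FPKM. Lamc1 and Lamb1, laminin chains of most basement membranes, had 12.5 ± 3.15 and 23.8 ± 3.23 against 5.55 ± 2.77 and 13.7 ± 9.50 FPKM. In the lists of other cells, Eno2 and Syp (neurons) had 12.7 ± 2.96 and 36.2 ± 7.27 against 7.29 ± 3.28 and 23.4 ± 6.97 FPKM. Slc1a3 and S100b (astrocytes) had 24.1 ± 12.8 and 4.07 ± 1.44 against 11.7 ± 6.34 and 1.85 ± 0.722 FPKM. C1qc and Cx3cr1 (microglia) had 14.01 ± 4.54 and 11.8 ± 3.17 against 4.75 ± 3.37 and 6.98 ± 1.3 FPKM. Olig2 and Mag (oligodendrocytes) had 5.04 ± 1.20 and 18.4 ± 4.24 against 1.59 ± 1.38 and 9.60 ± 7.94 FPKM. Alas2 (red blood cells) had 16.6 ± 7.09 against 6.62 ± 7.27 FPKM, and Mylpf and Myh4 (muscle) 24.8 ± 8.06 and 13.9 ± 5.95 against 12.6 ± 5.89 and 6.49 ± 2.96 FPKM. The log2 fold change of C1qc (-1.48 ± 0.55 SE) was at least as large as those of Kdr (-1.47 ± 0.53) and Vwf (-1.02 ± 0.41).

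Chains that form 1 collagen were compared within each library, where the scaling to all fragments cancels. Type I collagen holds more α1 than α2 chains, and cells that make it usually hold more Col1a1 than Col1a2 mRNA. Here the ratio of Col1a1 to Col1a2 in FPKM was 0.389, 0.395 and 0.587 in NorEV against 2.02, 0.910 and 0.650 in HypEV, so Col1a1 was higher in 1 of 6 libraries only. All HypEV ratios were above all NorEV ratios (exact permutation test, two-sided, p = 0.1, the smallest that 3 against 3 can give; adjusted p = 0.875 over the 10 pairs compared).

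The type IV genes lie in pairs that start next to each other on opposite strands. The starts are 21 bases apart for Col4a1 and Col4a2 on chromosome 8, 72 bases for Col4a3 and Col4a4 on chromosome 1 and 1309 bases for Col4a5 and Col4a6 on chromosome X. Col4a1 was above Col4a2 in 6 of 6 libraries (ratios 1.29 to 2.71). Col4a3 was below Col4a4 in 6 of 6 (0.423 to 0.601), and Col4a5 below Col4a6 in 6 of 6 (0.373 to 0.800). Col5a1 to Col5a2 (1.38 to 2.54) was likewise above 1 in 6 of 6 libraries, and Col8a1 to Col8a2 (0.256 to 0.808) in 0 of 6. Col6a1 to Col6a2 was above 1 in 5 of 6 libraries, Col11a1 to Col11a2 in 1, Col9a1 to Col9a2 in 2 and Col6a3 to Col6a1 in 3. For these 9 pairs the groups overlapped (exact permutation test, adjusted p = 0.875 to 0.900).

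**Figure D5:**
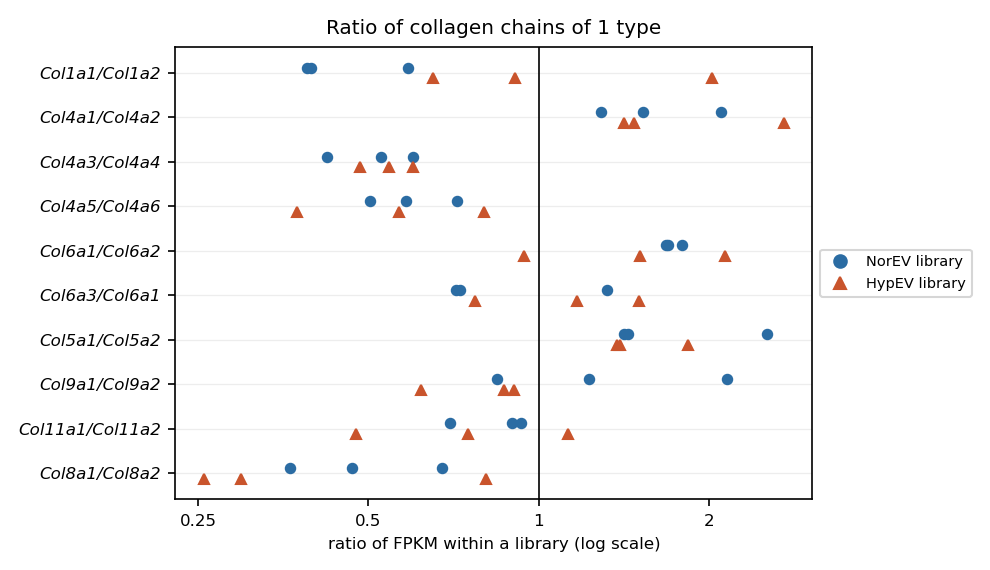
Ratio of FPKM of 10 pairs of collagen chains within each library (log axis); blue circles are NorEV and orange triangles HypEV libraries, and the line marks a ratio of 1. Col4a1/Col4a2 and Col5a1/Col5a2 lie above 1 in all 6 libraries, and Col1a1/Col1a2 lies below 1 in all libraries but HypEV 1.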

How the data were processed

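The authors deposited 1 table of FPKM per library, listing 53379 Ensembl identifiers. The file names mention HTSeq, a read counter. The aligner, genome build and annotation are not given in the sources used here. Per the labels' protocols, Trizol was used for the RNA, and a mini longRNA-seq kit of Epibiotek for the libraries. Of the identifiers 53274 matched GENCODE M21 (GRCm38), which gave names, positions, exons and transcript lengths.

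With the length of the longest transcript, 96.0% of values above 0 were whole fragments within 0.01. For Myh11 (annotated 6549 bases) only 6632 bases made all values whole. For Acta2 (annotated 2035), 6 lengths did, all multiples of the smallest, 1781, which was used. Fragments not on a gene are not known.

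HypEV was compared with NorEV in all 6 libraries by limma 3.58.1 (R 4.3.3) on log2(FPKM + 1), two-sided, with a variance trend and no covariates, for the 44125 genes whose mean reached 1 FPKM. The pseudocount understates changes of low genes. The threshold was a Benjamini-Hochberg adjusted p under 0.05 over all of them. Alternatives changed the pseudocount, filter, trend, scaling, test or libraries. Alike genes were sought with blastn 2.17.0, and other steps used Python 3.11.15 with scipy 1.17.1, numpy 2.4.6, matplotlib 3.10.9 and pandas 2.3.3. The fits were tested on simulated data in which all but a chosen set of genes kept the same expected share in every library. The uneven share of Gm23935 was not reproduced there, so that test does not show how the fits behave under it.

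Per-library values are given for the 2 most abundant members of each role, members with an unadjusted p under 0.05 and some others chosen after their values were seen. For other lists the 2 genes of smallest p are named, except 1 gene that is not reported here. The members, lists and rules were chosen with earlier results of these data known. The exon density comparison and the chain pairs were chosen after the values were seen.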

Additional observations from a re-analysis of the deposited data

How the results depend on the processing

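No member passed in the comparison as reported or under any alternative except limma-voom on recovered fragments with totals over all genes, where 1 did (Acta2, -1.89 ± 0.52 SE, adjusted p = 0.0486). That test called 236 genes in all, against 7. The median log2 fold change of the members, -0.44, became 0.0145 with libraries centred on their medians, -0.00687 after quantile normalization and -0.00889 in limma-voom with totals over protein-coding genes. It stayed at -0.43 to -0.53 under the other settings without a library left out, and was -0.74 to -0.21 with 1 library left out, when 0 members passed. Acta2, Col19a1 and Col1a2 were lower in HypEV in all 15 alternatives (-2.35 to -1.29, -1.55 to -0.87 and -1.63 to -0.71). These genes were picked by their p in the same libraries, and their groups did not overlap. Most of the alternatives, such as leaving out a library, could therefore not turn their direction. With a replicate block 0 members passed and the median was -0.44. The replicate numbers share no stated source: deviations of same-numbered libraries correlated at 0.04, 0.10 and -0.06, and not every library correlated best with its own number. Members rested on a median of 61 to 115 fragments per library, and calls were not tested against depth. The limma-voom values of Acta2 rest on a length chosen as the smallest of 6 that gave whole fragments.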
